A study of Mus musculus with 8 samples.

Results

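Axon guidance ligands and receptors were examined here in the mouse spinal cord after contusion, as the genes of the semaphorin, plexin, neuropilin, ephrin, Eph, Slit, Robo, netrin, Dcc and Unc5 families. The rule for the members reads names and no values: every messenger RNA (mRNA) probe with a RefSeq NM_ name whose gene symbol starts with Sema, Plxn, Efna, Efnb, Epha, Ephb, Robo or Unc5, or is Slit1, Slit2, Slit3, Nrp1, Nrp2, Dcc, Ntn1, Ntn3 or Ntn4. The rule gave 69 genes, read by 170 probes, of 20476 mRNA genes on the array, and all 69 were among the 18198 genes tested. Unc50 and Unc5cl fall under the rule by their names only, since neither is a netrin receptor. They are counted in the 69 and belong to none of the families described.

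The study set injured against uninjured cord with 1-colour Agilent arrays that read mRNAs, long noncoding RNAs and circular RNAs (circRNAs), the last being rings of exons closed by a back-splice junction. Each of the 8 arrays carried total RNA from the spinal cord of a female mouse aged 8 weeks, taken as segments T9 to T10 around the injury site, with 4 mice per group according to the study's design text. The strain and any genotype are not given in the sources used here. The 4 contusion samples had received a spinal cord contusion with no further agent named. Their titles give 3 days after injury, as does the design text, while their descriptions give 3, 4, 5 and 6 days for replicates 1, 2, 3 and 4. The 4 control samples are described as normal cord in the sample descriptions and as sham-operated in the design text, so whether the controls had surgery is not settled by the labels. P-values here measure the spread between these mice, which also holds any effect of array slide and described day.

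Axon guidance molecules are secreted or membrane-bound cues and the receptors that read them on growing axons. Semaphorins signal through plexins, with neuropilins as co-receptors for the secreted class 3. Ephrins bind Eph receptor tyrosine kinases on neighbouring cells, netrins attract or repel through Dcc and the Unc5 receptors, and Slits repel through Robo receptors. Several of the same molecules also act outside axons, in blood vessel growth, immune cell traffic and glial boundaries, and semaphorins, ephrins and Slits are known in the injured cord as cues that limit regrowth of axons.

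Levels are log2 intensities relative to the 75th percentile of the same array, so that a level of 1 means an intensity of 2 times that percentile, and they compare samples for 1 probe but not different genes. A difference is the contused mean less the control mean, in log2 units, and stands with the standard error (SE) of the limma fit over 4 arrays per group. A gene was called at an adjusted p under 0.05, with Benjamini-Hochberg adjustment over all 89140 mRNAs, long noncoding RNAs and circRNAs tested. Between 72.9% and 75.4% of spots were well above background per array, no spot was saturated, and all 69 members were well above background on all 8 arrays. The arrays lie on 2 slides, with control 2, 3 and 4 and contusion 1 on slide 1, and control 1 and contusion 2, 3 and 4 on slide 2. Contusion 1 is also the sample described as day 3, so that within the contusion group slide and described day cannot be told apart. Differences within each slide are therefore given beside the pooled ones and rest on a single array on 1 side.

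Of the 69 genes, 12 were called higher and 30 lower after contusion, which is 60.9% called against a background of 51.1% of all mRNAs tested. By direction, 17.4% of the members were called higher against a background of 25.8%, and 43.5% were called lower against 25.3%. The median difference over the members was -0.25, beside -0.00 over all mRNAs. In 39 of the 69 genes, 56.5%, the 4 control and the 4 contusion arrays did not overlap, beside 51.7% of all mRNAs. With each gene read from its brightest probe, only 2 members, Plxnd1 and Epha2, changed by 2-fold or more, both upwards. The largest fall so read was that of the netrin receptor gene Unc5a at -0.91 ± 0.11. With the mean of the probes of each gene, Plxnb2 at 1.05 and Epha8 at -1.03 also passed 2-fold, beside -0.93 for Unc5a. The 33 ligands gave 4 called higher and 14 called lower, and the 34 receptors gave 8 and 16.

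Direction went with family in the netrin receptors, Slits and neuropilins. All 5 genes of Dcc and the Unc5 receptors and all 3 Slits were lower, and both neuropilins were higher, and these 10 calls were made under all 18 alternative settings. The 9 EphA genes gave 1 higher and 5 lower, the 5 EphB genes 2 and 1, the 9 plexins 2 and 3, and the 13 semaphorins of classes 4 to 7 gave 1 and 6. Each of the 42 called members had the same sign within slide 1 and within slide 2. The same arrays gave the calls, so this is no separate check of them. The median of the members was -0.26 within slide 1 and -0.06 within slide 2, beside -0.01 and 0.04 over all mRNAs. With the slide as a term in the fit, 14 members were called higher and 22 lower, 34 of them among the 42, beside 45.6% of all mRNAs called. Leaving out 1 array in turn lost the call of 8 members, with an adjusted p of up to 0.107. These were Ntn3 (7 of the 8 arrays), Efna2, Epha4 and Sema4f (6 each), Sema6c (5), Plxna3 (4), Plxnb1 (2) and Ephb3 (1). The other 34 called members kept their call whichever array was left out. Of all mRNAs 43.6% to 52.8% were then called.

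**Figure D1:**
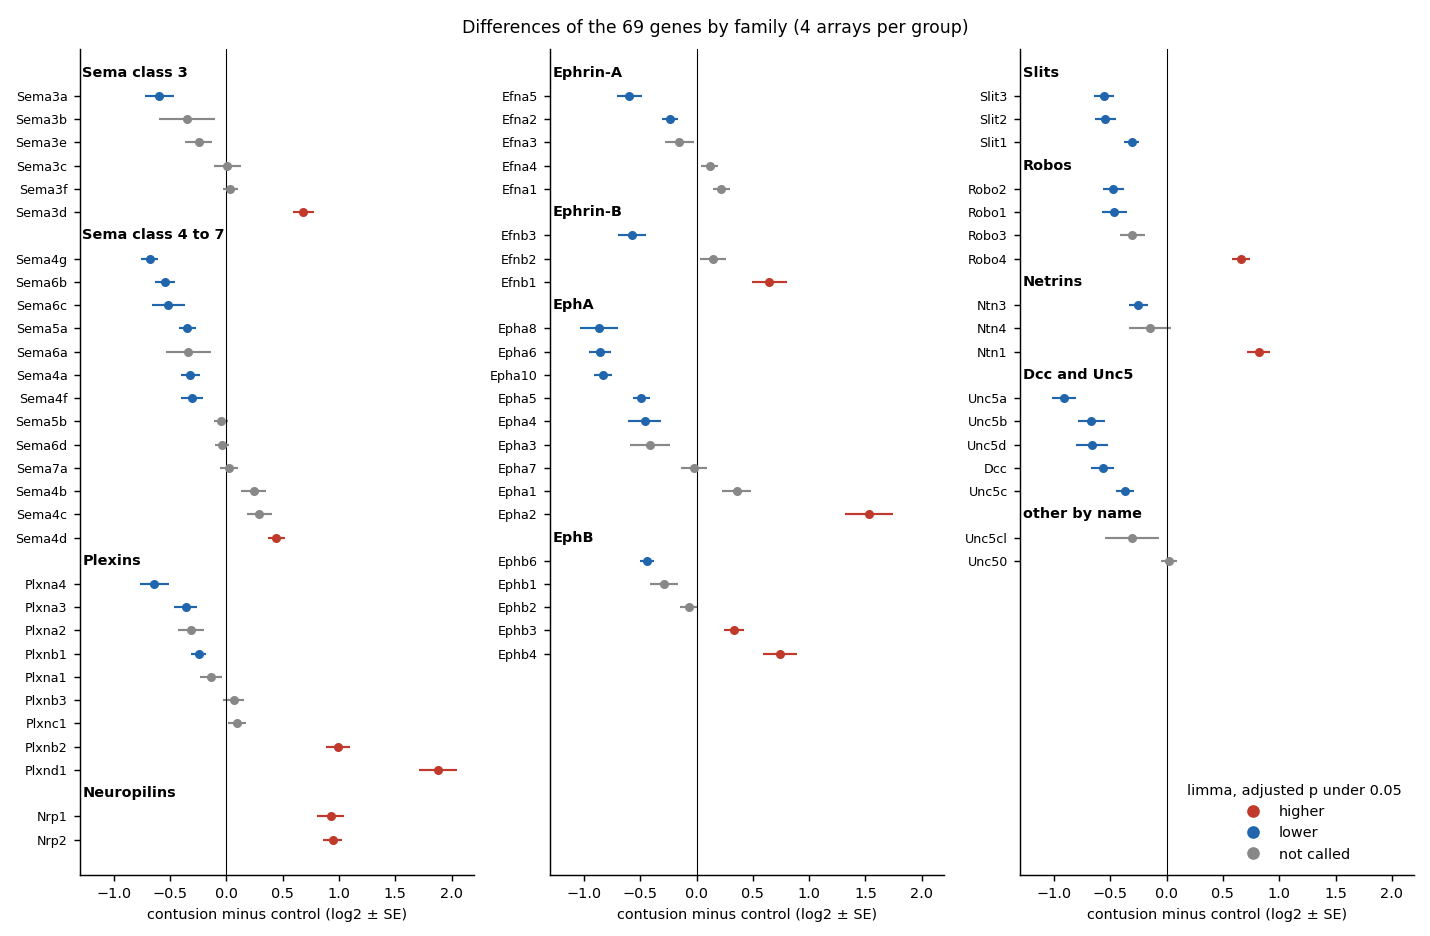
Difference of each of the 69 genes, contusion minus control on the log2 scale, by family, with bars of 1 SE over 4 arrays per group; red points were called higher, blue lower and grey not called. Dcc, the Unc5 receptors and the Slits lie wholly below 0 and the neuropilins wholly above it, and Plxnd1 and Epha2 stand farthest to the right at 1.88 and 1.53.

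Markers of the cells in the tissue moved together with these groups, and in such bulk samples fewer cells of a type and less RNA per cell cannot be told apart. All 12 neuron markers were lower, with a mean level over the list of 6.13 to 6.34 on control arrays and 5.36 to 5.65 on contusion arrays. All 9 macrophage markers were higher, the list rising from between -0.84 and 1.34 to between 3.75 and 4.10, and 9 of 10 endothelial markers were higher, from 1.85 to 2.29 up to 2.81 to 2.94. Among 5 other lists, 4 of 7 oligodendrocyte precursor, 5 of 8 microglia, 4 of 10 fibroblast and pericyte and 7 of 8 dividing cell markers were higher, and 3 of 8 oligodendrocyte markers were lower. The 8 astrocyte markers split into 4 higher and 3 lower, and 1 of 7 Schwann cell markers was higher. None of the 8 skeletal muscle markers was called, but their mean level was 4.27 on contusion 1 and 2.43 on contusion 2, beside 0.49 and 0.25 on the other two contusion arrays and -0.49 to 1.43 on the controls. Every marker was well above background on at least 1 array of each group. Without contusion 1 and 2, 11 members were called higher and 22 lower, all 33 of them among the 42, beside 39.1% of all mRNAs called. The part of these cell types in the differences of the guidance genes was not tested.

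**Figure D2:**
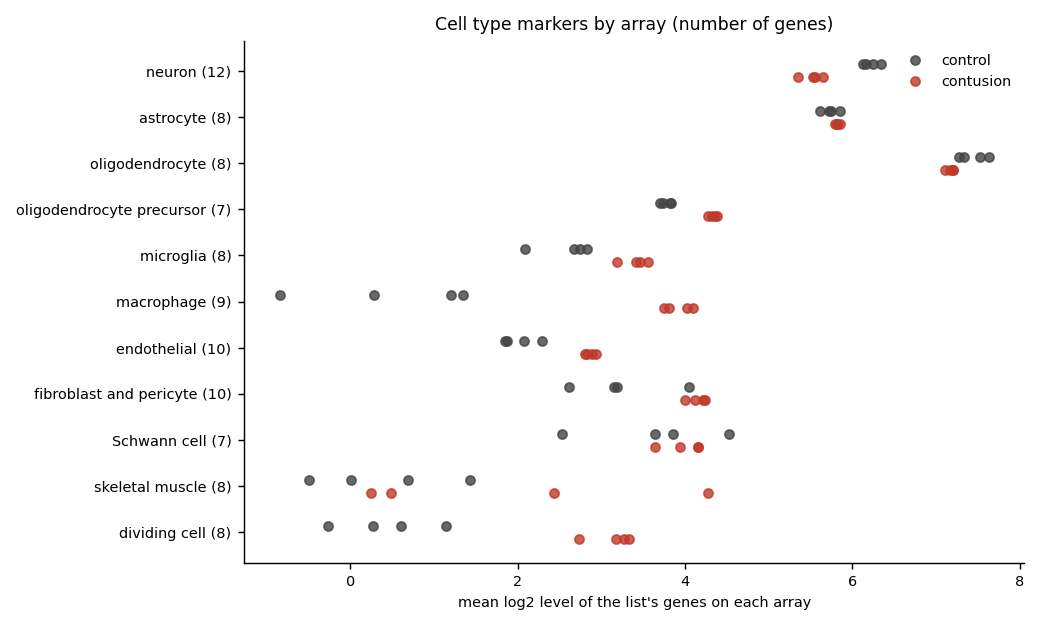
Mean log2 level of each cell type marker list on each of the 8 arrays, 1 point per array, with the number of genes in brackets; control in grey, contusion in red. Neuron markers are lower and macrophage, endothelial and dividing cell markers higher on all 4 contusion arrays, and 2 contusion arrays at 2.43 and 4.27 stand above the rest for skeletal muscle.

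Plxnd1 and Epha2 showed the largest changes of the set. Plxnd1 encodes plexin D1, a semaphorin receptor known for guiding blood vessels, and Epha2 encodes an Eph receptor tyrosine kinase found on many epithelial and endothelial cells. Because these 2 genes alone passed 2-fold with their brightest probes, the 250 bases before their annotated starts are shown. These windows come from RefSeq on the GRCm38.p6 build, at chr6:115995006-115995255 on the minus strand for Plxnd1 and at chr4:141300971-141301220 on the plus strand for Epha2. Both strands were searched for the AP-1 motif TGANTCA, the STAT motif TTCNNNGAA, the ACGTG form of the hypoxia element and the GC box GGGCGG. The matches are in capitals (CCGCCC is the GC box on the other strand).
Plxnd1: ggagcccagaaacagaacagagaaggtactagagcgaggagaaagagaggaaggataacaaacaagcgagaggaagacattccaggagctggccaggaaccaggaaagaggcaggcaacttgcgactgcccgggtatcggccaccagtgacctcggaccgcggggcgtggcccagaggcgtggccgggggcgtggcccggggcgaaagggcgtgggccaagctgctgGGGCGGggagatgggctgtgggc
Epha2: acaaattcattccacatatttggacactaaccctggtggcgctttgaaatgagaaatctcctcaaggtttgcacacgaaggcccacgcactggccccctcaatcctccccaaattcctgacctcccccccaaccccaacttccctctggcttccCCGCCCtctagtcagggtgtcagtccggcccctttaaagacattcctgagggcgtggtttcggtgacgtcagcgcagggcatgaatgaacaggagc
Each held 1 GC box and no match to the other motifs, which says only that these letters are absent from these windows. Of the hypoxia element only the form ACGTG was searched for, and GCGTG, which both windows hold, was not counted. Among all 32851 promoter windows of the same length 32.7% held a GC box, beside 64.3% of 14 windows of the members called higher, 71.9% of 32 of those called lower and 75.9% of 29 of those not called. Windows were available for 11 of the 12 members called higher, 25 of the 30 called lower and 23 of the 27 not called. Some genes had several. Among these windows the share was thus no higher in the higher members than in the lower ones. An AP-1 match was present in 1 window of each of these 3 groups, beside 6.75% of all windows.

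Among the semaphorin receptors, the neuropilins and 2 of the 9 plexins were higher and 3 plexins were lower. Plxnd1 (NM_026376) read 2.00, 1.52, 2.21 and 1.53 on control arrays 1 to 4 and 3.59, 3.57, 3.72 and 3.89 on contusion arrays 1 to 4. Every contusion array lay above every control array, and the difference was 1.88 ± 0.17, or 3.68-fold (adjusted p = 0.000175; 1.84 within slide 1 and 1.73 within slide 2). Plxnb2, which encodes a receptor for class 4 semaphorins, read 3.86, 3.81, 3.94 and 3.49 on the controls and 4.79, 4.61, 4.85 and 4.79 after contusion. The groups stood apart, the nearest arrays at 3.94 and 4.61, and differed by 0.99 ± 0.11, 1.98-fold (adjusted p = 0.000327; 1.05 within slide 1 and 0.89 within slide 2).

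The neuropilins bind class 3 semaphorins and also forms of vascular endothelial growth factor. Nrp1 levels were 1.82, 2.06, 2.30 and 2.03 in the control mice against 3.14, 2.76, 3.05 and 2.98 in the contused mice. They did not overlap and differed by 0.93 ± 0.12 (adjusted p = 0.000639; 1.01 within slide 1 and 1.10 within slide 2). Nrp2 gave 2.86, 2.93, 3.22 and 2.95 and 3.94, 3.87, 3.93 and 4.00 in the same order, with all 4 contusion arrays within 3.87 to 4.00. The Nrp2 difference was 0.94 ± 0.09 (adjusted p = 0.000189 by limma), with 0.91 within slide 1 and 1.07 within slide 2. By the brightest probes this was almost the same as for Nrp1. The other Nrp2 probe, under the same RefSeq name, stood at 0.57 ± 0.05, whereas the 3 Nrp1 probes ran from 0.93 to 1.05. Endothelial and macrophage markers rose on the same arrays, as given above.

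Other plexins moved less. Plxna4, a receptor that pairs with neuropilin 1 for the semaphorin 3A signal, read 3.76, 4.25, 4.02 and 4.04 in controls and 3.64, 3.35, 3.31 and 3.20 after contusion, without overlap, and was lower by a difference of -0.64 ± 0.13 (adjusted p = 0.00491; -0.46 within slide 1 and -0.48 within slide 2). Plxnb1, another receptor for semaphorin 4D, read 3.24, 3.30, 3.31 and 3.35 in controls and 3.10, 2.98, 2.99 and 3.15 after contusion. Its groups did not overlap, but the nearest arrays stood at 3.15 and 3.24, and the difference was -0.25 ± 0.07 (adjusted p = 0.0175; -0.22 within slide 1 and -0.21 within slide 2). Its adjusted p was 0.0595 with the slide as a term, 0.0513 without control 4 and 0.0533 without contusion 3, and of its 3 probes 1 went the other way, at 0.19, their mean being -0.13 (adjusted p = 0.0636). Plxna1, a main partner of the neuropilins, was not called: levels of 4.29, 4.67, 4.53 and 4.64 in controls and 4.52, 4.35, 4.41 and 4.30 in contused cord overlapped, with a difference of -0.13 ± 0.10 (adjusted p = 0.320). Of the rest, Plxna3 was lower by the test at -0.36 ± 0.10, though its adjusted p was 0.0823 with the slide as a term. The mean of the Plxna3 probes was -0.13 (adjusted p = 0.185 by limma). Plxna2, Plxnb3 and Plxnc1 were not called, at -0.32 ± 0.12, 0.06 ± 0.09 and 0.09 ± 0.08. With the mean of their probes, Plxna2 was called lower at -0.27 and Plxnc1 higher at 0.24 (adjusted p of 0.0274 and 0.0277 by limma).

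**Figure D3:**
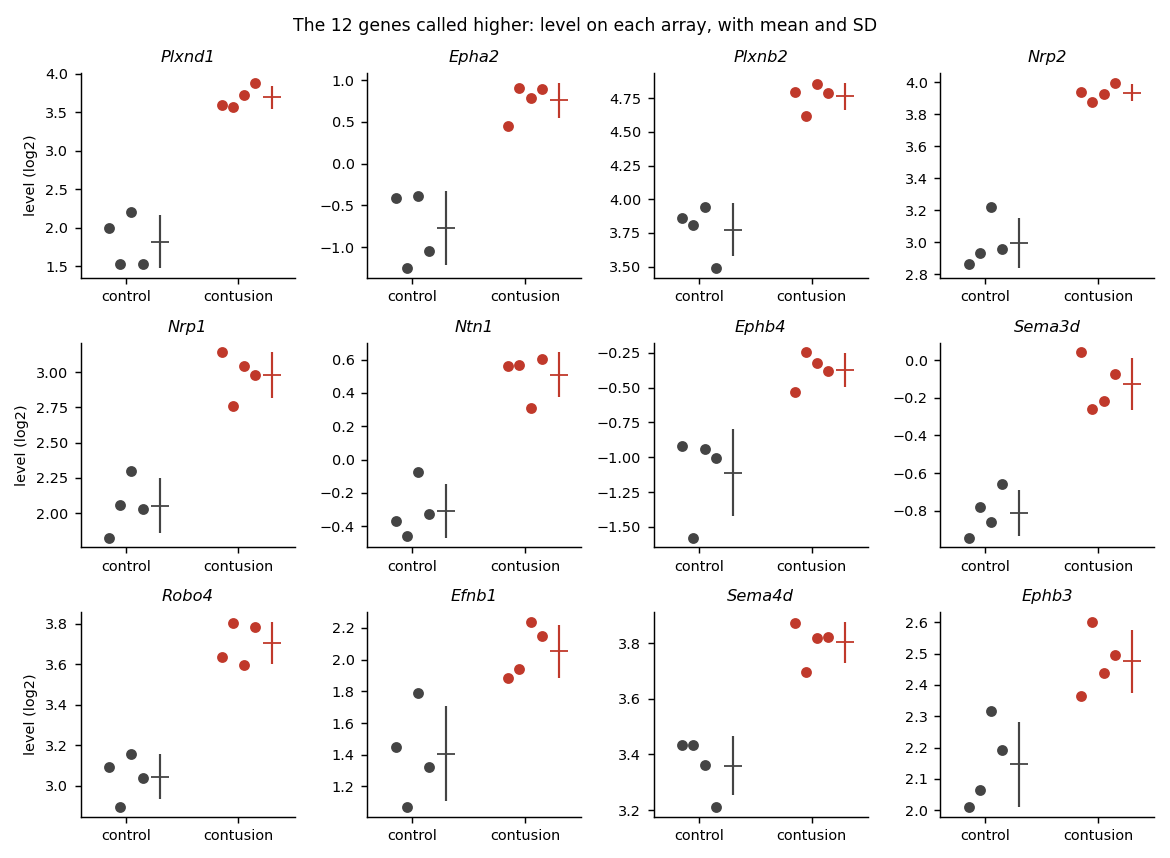
Log2 level of the 12 genes called higher on each array, with the mean and the standard deviation (SD) of each group beside the points; each panel has its own axis. In all 12 genes the 4 contusion arrays (red) lie above the 4 control arrays (grey).

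The class 3 semaphorins, which are secreted, did not move as a class: of 6 genes, Sema3d was higher, Sema3a was called lower with its brightest probe alone and 4 were not called. Sema3d levels were -0.94, -0.78, -0.86 and -0.66 in control cord and 0.04, -0.26, -0.22 and -0.08 after contusion. The groups did not overlap and differed by 0.68 ± 0.09, 1.61-fold (adjusted p = 0.000813; 0.81 within slide 1 and 0.76 within slide 2). Sema3a, the classical growth cone collapsing cue, read -0.51, -0.04, -0.38 and 0.02 in controls and -0.85, -0.70, -0.82 and -0.92 after contusion with its brightest probe, a difference of -0.60 ± 0.13 (adjusted p = 0.00703; -0.72 within slide 1 and -0.30 within slide 2).

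Sema3a is the member whose probes disagreed most plainly. All 3 of its probes carry the same RefSeq name, and beside the brightest at -0.60 ± 0.13 the second was higher by 0.57 ± 0.12 (adjusted p = 0.00480) and the third stood at 0.06 ± 0.23. Their mean gave 0.01 (adjusted p = 0.961), so no direction for Sema3a follows from this array, although it is counted among the 30 lower by the rule of the brightest probe. Sema3f, a ligand that works mainly through neuropilin 2, read -1.30, -1.42, -1.31 and -1.33 in controls and -1.33, -1.21, -1.31 and -1.37 after contusion. The ranges overlapped and the difference was 0.04 ± 0.06 (adjusted p = 0.702). The remaining Sema3b, Sema3c and Sema3e were not called either, with differences of -0.35 ± 0.25, 0.01 ± 0.12 and -0.25 ± 0.12.

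Among the 13 membrane-bound or membrane-linked semaphorins of classes 4 to 7, Sema4d alone was higher and 6 were lower. Sema4d, the ligand of plexin B1 and a protein of lymphocytes and oligodendrocytes, read 3.43, 3.43, 3.36 and 3.21 in controls and 3.87, 3.70, 3.82 and 3.82 after contusion. All contusion arrays were above all controls by a difference of 0.44 ± 0.08 (adjusted p = 0.00221; 0.54 within slide 1 and 0.35 within slide 2), and the mean of its probes gave 0.28 (adjusted p = 0.0402). Sema4g, a class 4 member, had levels of 2.51, 2.56, 2.49 and 2.32 in control and 1.83, 1.86, 1.80 and 1.67 in contused cord. It showed the largest fall of the 19 semaphorins, -0.68 ± 0.08 (adjusted p = 0.000342; -0.63 within slide 1 and -0.73 within slide 2). Sema5a, a transmembrane semaphorin with thrombospondin repeats, read 4.56, 4.68, 4.85 and 4.76 and 4.44, 4.33, 4.35 and 4.33 in the 2 groups, which did not overlap, a difference of -0.35 ± 0.08 (adjusted p = 0.00729; -0.32 within slide 1 and -0.22 within slide 2).

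Sema6b and Sema6c were lower at -0.54 ± 0.09 and -0.51 ± 0.15, and Sema4a and Sema4f at -0.32 ± 0.08 and -0.31 ± 0.10. The mean of the probes of Sema6c gave -0.33, with an adjusted p just over 0.05, and normexp background correction gave -0.30. Sema6c, Sema4a and Sema4f lost their call with the slide as a term, at adjusted p values of 0.0505, 0.0532 and 0.128. Sema6a, a transmembrane semaphorin of oligodendrocytes and neurons, read 2.66, 3.44 and 3.37 on control arrays 1 to 3 and 3.06, 2.80, 2.76 and 2.64 on contusion arrays 1 to 4, the spot of control 4 being left out of the fit as an outlier. Contusion 4 and control 1 were the lowest arrays and the groups overlapped, with a difference of -0.34 ± 0.20 (adjusted p = 0.232). Without control 1 the difference was -0.59 (adjusted p = 0.0130), and in the authors' deposited table, which keeps the spot of control 4, it was -0.97 (adjusted p = 0.208). Sema7a, a lipid-anchored semaphorin that acts through integrins, read 5.89, 5.94, 5.70 and 5.96 in controls and 5.96, 5.98, 5.85 and 5.80 after contusion, a difference of 0.03 ± 0.08 with overlapping groups (adjusted p = 0.834). Sema4b, Sema4c, Sema5b and Sema6d were not called, with differences from -0.05 to 0.29.

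In the netrin system Ntn1 was higher, Ntn3 was lower, Ntn4 was not called, and Dcc and the 4 Unc5 receptors were all lower. Neo1, which encodes the further netrin receptor neogenin and is no member here, was named after its value was seen and was higher by 0.32 ± 0.07 (adjusted p = 0.00589). Ntn1, the secreted netrin 1 of the floor plate and of oligodendrocytes, read -0.37, -0.46, -0.08 and -0.33 in controls and 0.56, 0.57, 0.31 and 0.60 after contusion. Contusion 3 was the lowest of its group but still above every control, and the difference was 0.82 ± 0.10, 1.76-fold (adjusted p = 0.000601; 0.85 within slide 1 and 0.86 within slide 2). Ntn3 was lower at -0.25 ± 0.08 with overlapping groups (adjusted p = 0.0452, and 0.150 with the slide as a term), and Ntn4, a netrin of basement membranes, was not called at -0.15 ± 0.18.

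Dcc, the receptor for attraction to netrin, read 1.62, 2.08, 1.86 and 1.98 on the control arrays and 1.35, 1.40, 1.24 and 1.27 on the contusion arrays. No arrays overlapped and the difference was -0.57 ± 0.10 (adjusted p = 0.00325; -0.62 within slide 1 and -0.32 within slide 2). Unc5a had levels of 3.95, 4.07, 3.87 and 4.00 in controls and 3.18, 3.19, 3.09 and 2.77 after contusion, and with Unc5b, Unc5c and Unc5d it encodes the receptors for repulsion from netrin. The Unc5a fall of -0.91 ± 0.11, or 1.88-fold (adjusted p = 0.000398 by limma), was the largest decrease among the 69 genes by their brightest probes. It was -0.80 within slide 1 and -0.93 within slide 2, and contusion 4 was the lowest array.

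Unc5b, which also acts in vessels, went from 4.52, 4.98, 4.65 and 4.92 in controls to 4.21, 4.19, 4.06 and 3.94 after contusion. It differed by -0.67 ± 0.12 without overlap (adjusted p = 0.00292; -0.64 within slide 1 and -0.46 within slide 2). For Unc5d the values were -0.10, 0.46, 0.35 and 0.22 and -0.40, -0.26, -0.37 and -0.71, control 1 being the lowest control and contusion 4 the lowest of all. The difference was -0.67 ± 0.14 (adjusted p = 0.00680), and it was -0.74 within slide 1 and -0.34 within slide 2, where control 1 is the only control. Unc5c was lower by the smallest amount of the 5, -0.37 ± 0.08 (adjusted p = 0.00701; -0.49 within slide 1 and -0.27 within slide 2). The neuron markers fell on the same arrays by a median of -0.72 over the list, beside a median of -0.67 over these 5 receptors.

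**Figure D4:**
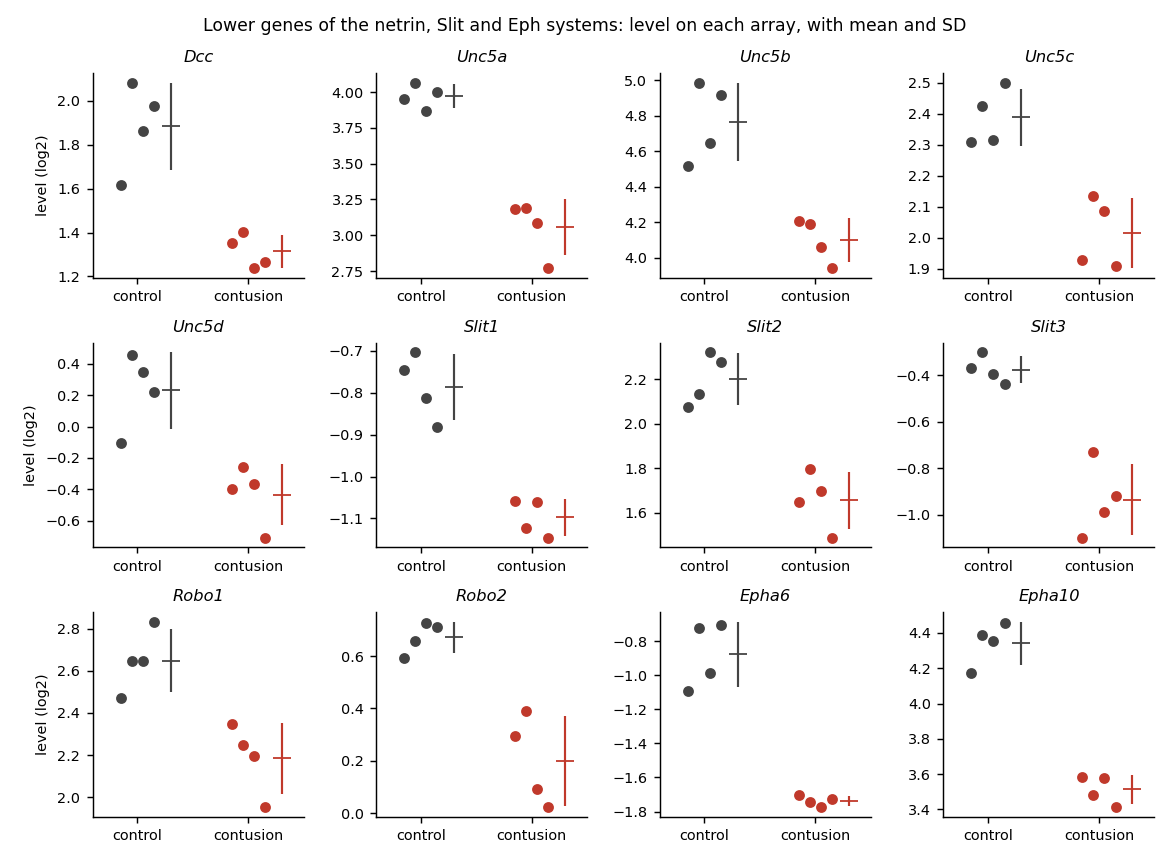
Log2 level on each array of 12 lower genes of the netrin, Slit and EphA systems, with the mean and SD of each group; each panel has its own axis. The 4 contusion arrays (red) lie below the 4 control arrays (grey) in each panel, with the narrowest gap for Robo1 between 2.35 and 2.47.

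The 3 Slits, secreted ligands that repel axons, were all lower, and so were their neuronal receptors Robo1 and Robo2. Slit1 read -0.74, -0.70, -0.81 and -0.88 in controls and -1.06, -1.12, -1.06 and -1.15 after contusion, a difference of -0.31 ± 0.06 with no overlap (adjusted p = 0.00557; -0.26 within slide 1 and -0.37 within slide 2). For Slit2, values were 2.08, 2.13, 2.32 and 2.27 in control and 1.65, 1.79, 1.70 and 1.49 in contused cord. It differed by -0.54 ± 0.09, again without overlap (adjusted p = 0.00195; -0.59 within slide 1 and -0.42 within slide 2). Slit3 gave -0.37, -0.30, -0.39 and -0.44 in controls and -1.10, -0.73, -0.99 and -0.92 after contusion, with contusion 2 nearest to the controls. Its difference was -0.56 ± 0.09 (adjusted p = 0.00147; -0.72 within slide 1 and -0.51 within slide 2).

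Robo1 read 2.47, 2.64, 2.64 and 2.83 in controls and 2.35, 2.25, 2.19 and 1.95 after contusion, and Robo2 read 0.59, 0.66, 0.73 and 0.71 and 0.29, 0.39, 0.09 and 0.02. In both genes contusion 4 was the lowest array and no arrays overlapped, and the differences were -0.46 ± 0.11 (adjusted p = 0.0103; -0.36 within slide 1 and -0.34 within slide 2) and -0.47 ± 0.09 (adjusted p = 0.00450; -0.40 within slide 1 and -0.43 within slide 2). Robo4, the Robo of endothelial cells, went the other way, with 3.09, 2.89, 3.15 and 3.04 in controls and 3.64, 3.80, 3.59 and 3.78 after contusion. It was higher by 0.66 ± 0.08, 1.58-fold (adjusted p = 0.000572; 0.61 within slide 1 and 0.63 within slide 2), beside a median difference of 0.84 over the 10 endothelial markers. Robo3, known for commissural axons, was not called at -0.31 ± 0.11 (adjusted p = 0.0629).

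Among the EphA receptors the single increase, that of Epha2, was larger in size than any decrease in the family. Epha2 (NM_010139) read -0.41, -1.25, -0.39 and -1.04 in controls and 0.45, 0.90, 0.79 and 0.89 after contusion. The groups were far apart, the nearest arrays at -0.39 and 0.45, and the difference was 1.53 ± 0.21, 2.89-fold (adjusted p = 0.000912; 1.34 within slide 1 and 1.27 within slide 2). Of the 5 EphA receptors called lower, Epha8, a receptor for ephrin-A ligands, read 1.58, 2.14, 2.19 and 2.30 in controls and 1.30, 1.09, 1.41 and 0.96 after contusion, with control 1 the lowest control. Its difference of -0.87 ± 0.17 (adjusted p = 0.00456) was -0.92 within slide 1 and -0.43 within slide 2.

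Epha6, an Eph receptor mostly of neurons, read -1.09, -0.72, -0.99 and -0.71 in controls and -1.70, -1.74, -1.78 and -1.73 after contusion, the 4 contusion arrays lying close together. It was lower by the difference -0.86 ± 0.10 (adjusted p = 0.000374; -0.90 within slide 1 and -0.66 within slide 2). Epha10, a member whose kinase domain lacks activity, read 4.17, 4.39, 4.36 and 4.46 in controls, and after contusion 3.48 and 3.41 on arrays 2 and 4 and 3.6 on arrays 1 and 3. No array of either group came near the other group, and the groups differed by -0.83 ± 0.08 (adjusted p = 0.000221; -0.82 within slide 1 and -0.68 within slide 2).

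Epha4, a receptor studied as a brake on corticospinal axon regrowth, was a borderline call with its brightest probe. It read 1.99, 2.50, 2.51 and 2.52 in controls and 2.16, 1.88, 1.92 and 1.72 after contusion, so that control 1 stood below the highest contusion array. The difference was -0.46 ± 0.14 (adjusted p = 0.0354; -0.35 within slide 1 and -0.15 within slide 2), and it stood at -0.25 (adjusted p = 0.0537) with the slide as a term. Its adjusted p was 0.0746 to 0.0915 on leaving out any 1 of control 2, 3 or 4 or contusion 2, 3 or 4. All 3 Epha4 probes were called lower in a limma fit of single probes, and their mean gave -0.38 (adjusted p = 0.00430 by limma). Epha5 was lower at -0.49 ± 0.07, whereas Epha1, Epha3 and Epha7 were not called, at 0.35 ± 0.13, -0.41 ± 0.17 and -0.02 ± 0.11. With the mean of their probes, Epha1 was called higher at 0.45 and Epha7 lower at -0.40 (adjusted p of 0.0230 and 0.00465 by limma). The Epha1 groups did not overlap, and its adjusted p was 0.0200 with the slide as a term in the limma fit.

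The EphB receptors were divided. Ephb4, the receptor of veins, read -0.92, -1.58, -0.94 and -1.00 in controls and -0.53, -0.25, -0.32 and -0.38 after contusion. Control 2 lay well below the other controls, no arrays overlapped, and the difference was 0.74 ± 0.15 (adjusted p = 0.00572; 0.64 within slide 1 and 0.61 within slide 2). Ephb3, a receptor for B-type ephrins, read 2.01, 2.06, 2.32 and 2.19 in controls and 2.36, 2.60, 2.44 and 2.50 after contusion, a difference of 0.33 ± 0.09 (adjusted p = 0.0192; 0.17 within slide 1 and 0.50 within slide 2). Without control 2 its adjusted p was 0.0540. Ephb2, a receptor of neurons and of meningeal fibroblasts, read 2.01, 2.29, 2.27 and 2.25 in controls and 2.20, 2.17, 2.09 and 2.12 after contusion, with overlap and a difference of -0.07 ± 0.08 (adjusted p = 0.549). Ephb6 was lower at -0.44 ± 0.07, and Ephb1 was not called at -0.29 ± 0.13.

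Their ligands were divided in the same manner. Efnb1, a transmembrane ephrin, read 1.45, 1.07, 1.79 and 1.32 in controls and 1.89, 1.94, 2.24 and 2.15 after contusion. The nearest arrays were control 3 at 1.79 and contusion 1 at 1.89, and the difference was 0.65 ± 0.16 (adjusted p = 0.0116; 0.49 within slide 1 and 0.66 within slide 2). Efnb3, the ephrin of the spinal midline and of oligodendrocytes, read 5.42, 5.78, 5.28 and 5.74 in controls and 5.04, 5.09, 4.89 and 4.91 after contusion, lower by the difference -0.57 ± 0.12 without overlap (adjusted p = 0.00680; -0.56 within slide 1 and -0.46 within slide 2).

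Efnb2, the ligand of arteries and a partner of Ephb4, read 1.53, 1.50, 1.91 and 1.55 in controls and 1.78, 1.66, 1.95 and 1.68 after contusion. Control 3 was the highest control, the groups overlapped, and the difference was 0.15 ± 0.11 (adjusted p = 0.349). Among the lipid-anchored ephrin-A ligands, Efna5 read 2.21, 2.45, 2.54 and 2.44 in controls and 1.91, 1.79, 1.97 and 1.58 after contusion, a difference of -0.60 ± 0.11 with no overlap (adjusted p = 0.00303; -0.57 within slide 1 and -0.43 within slide 2). Efna2 was lower at -0.24 ± 0.07, with an adjusted p of 0.0344 and of 0.105 with the slide as a term, and it was -0.12 with normexp background correction, and Efna1, Efna3 and Efna4 were not called at 0.22 ± 0.08, -0.15 ± 0.13 and 0.12 ± 0.08.

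The values of some known ligand and receptor pairs, chosen as examples, stood as follows. For the netrin axis Ntn1 stood at 0.82 and Dcc at -0.57, of opposite sign. For semaphorin 4D the ligand stood at 0.44 and its receptors Plxnb1 and Plxnb2 at -0.25 and 0.99. For the Slit axis the ligands were all negative, from -0.56 to -0.31, as were the receptors Robo1 and Robo2, from -0.47 to -0.46. Robo3, which was not called, stood at -0.31 and Robo4 at 0.66. The receptor Ephb4 stood at 0.74 and its ligand Efnb2, which was not called, at 0.15.

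More than 1 probe was available for 66 of the 69 genes. Differences of both signs occurred among the probes of 14 genes, but probes called in both directions occurred in Sema3a and Plxnb1 only. Where the probes of each gene were averaged, 15 members were called higher and 28 lower, 38 of them among the 42 called with the brightest probe, beside 53.1% of all mRNAs called. Values of single probes come from a separate limma fit of every probe, whose SE and adjusted p differ slightly from those of the genes. Gained by averaging were Efna4, Epha1, Epha7, Plxna2 and Plxnc1. The second probe of Efna4, with the same RefSeq name as the brightest, stood at 1.10 ± 0.19 (adjusted p = 0.00196 in the limma fit of single probes). The brightest Efna1 probe, not called in the fit of the genes, had an adjusted p of 0.0444 in the fit of single probes and 0.0513 in that of the genes.

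The other guidance genes were taken as a list of 33 further cues and receptors and a list of 65 genes that act inside the cell. The first list gave 9 higher and 13 lower, 66.7% called beside 51.1% of all mRNAs, with a median of -0.02, and so lay nearer to the median of all mRNAs at -0.00 than the 69 members did. Cxcr4, the chemokine receptor that guides leukocytes and precursor cells, rose by 1.82 ± 0.16 and Ntn5 by 1.19 ± 0.20. Nrcam, a cell adhesion molecule in semaphorin receptor complexes, rose by 1.47 ± 0.09 with its brightest probe, but its 3 probes averaged 0.56. Lower were Ntng1, a membrane-anchored netrin, at -1.28 ± 0.12, Lrrc4c, the membrane protein that binds netrin G1, at -0.73 ± 0.12, and Dscam, an adhesion receptor for netrin, at -0.82 ± 0.07.

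The second list, of kinases, adaptors and cytoskeletal genes, gave 17 higher and 24 lower, 63.1% called beside the same 51.1%, with a median of -0.12. Rac2, the Rac of blood cells, rose by 2.22 ± 0.38 (2.50 within slide 1 and 1.49 within slide 2), Fes, a kinase of myeloid cells that can act below plexins, by 1.67 ± 0.18, and Met, the hepatocyte growth factor receptor that joins with B-type plexins, by 1.14 ± 0.12. Chn1, the neuronal Rac regulator chimaerin 1 that acts below Epha4, was lower at -1.16 ± 0.11 and the endocytic scaffold Itsn1 at -0.78 ± 0.08. Macrophage and neuron markers moved on the same arrays as these genes, and their part was not tested.

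CircRNAs from the same genes were read by separate 60-base probes laid across the back-splice junction. Of the 37852 circRNA intervals, 98.2% fell within the span of some GRCm38 gene, beside 40.8% after a shift by 1000000 bases, although the build of the positions is not given in the sources used here. Each circRNA was assigned where it lay inside exactly 1 gene, which put 291 in 47 of the guidance genes, and 267 in 46 genes were tested. The 4 with the largest differences are shown by their probes, 5′ to 3′ as deposited, to show where the junction lies in them. Capitals mark the shorter side of the junction, placed by comparing probes that share 1 end; for Plxnb2 it could not be placed.
Epha6 chr16:59954652-60005699, minus strand: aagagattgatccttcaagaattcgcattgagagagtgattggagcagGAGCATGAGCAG
Epha6 chr16:60424721-60483910, minus strand: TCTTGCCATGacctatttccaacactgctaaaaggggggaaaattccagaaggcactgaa
Epha6 chr16:59775543-59818997, minus strand: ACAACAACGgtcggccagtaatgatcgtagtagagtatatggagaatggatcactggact
Plxnb2 chr15:89161675-89163370, minus strand: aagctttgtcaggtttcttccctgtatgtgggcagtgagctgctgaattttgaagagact
In the 3 Epha6 probes the shorter side held 12, 10 and 9 bases, so that most of the 60 bases lie on 1 side of the junction, in sequence that probes of other circles of the gene also hold. Over the 211 probes that could be placed, the shorter side had a median of 11 bases, from 7 to 30. How much of each signal came from linear RNA was not measured.

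Of the 267 circRNAs, 19 were called higher and 113 lower, which is 49.4% called beside 41.9% of all circRNAs. The groups did not overlap in 130, or 48.7%, beside 43.7% of all circRNAs. Lower calls made up 42.3% against a background of 25.7%, and higher calls 7.12% against 16.2%. The median was -0.22, beside -0.05 over all circRNAs, and it was -0.30 within slide 1 and -0.26 within slide 2. CircRNAs of 1 gene share exons and probe sequence, so they are not independent readings.

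In hosts called either way, the circRNAs that were called mostly went with the host mRNA in direction. Of the 193 in hosts called lower, 103 were lower, 2 higher and 88 not called. Lower calls were thus 53.4%, beside 25.7% of all circRNAs. Epha6 gave 26 of the 103, Dcc 23, Robo2 14 and Robo1 12, whereas none in Sema5a, Plxna4 or Epha8 was called. Of the 17 in hosts called higher, 13 were higher, 76.5% beside 16.2% of all circRNAs. None of the 17 was lower by the limma test, with 1 lower at an unadjusted p under 0.05. Of the 57 in hosts that were not called, 4 were higher and 10 lower. Among the circRNAs of lower hosts, 65 of 98 probes with 12 or fewer bases on the shorter side were called lower, beside 27 of 66 with more than 12, with medians of -0.45 and -0.26.

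**Figure D5:**
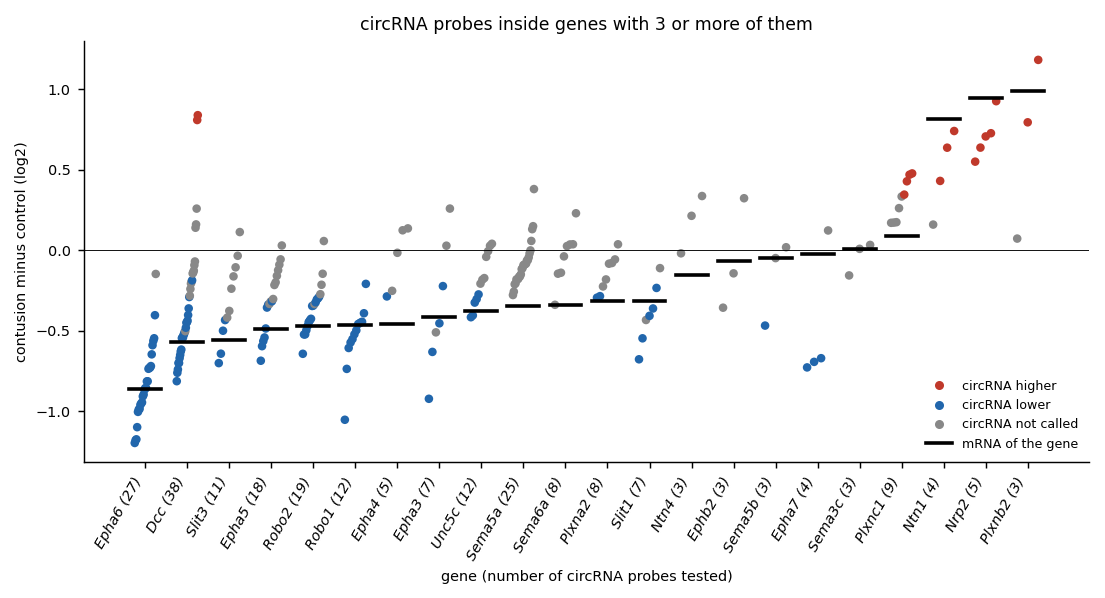
Difference of each tested circRNA, contusion minus control on the log2 scale, in the genes with 3 or more of them, 1 point per circRNA probe, coloured by call, with a black bar for the mRNA of the gene. Epha6 points lie below 0 throughout, 2 Dcc points stand apart at 0.81 and 0.84, and the 25 of Sema5a are all grey.

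In Epha6, 26 of the 27 circRNAs were lower, with a median of -0.86. The Epha6 mRNA stood at -0.86 as well, and at -0.46 with normexp background correction. The circRNA at chr16:59954652-60005699 read -2.53, -1.97, -2.27 and -2.26 on the controls and -3.26, -3.38, -3.74 and -3.44 after contusion, without overlap, and differed by -1.20 ± 0.14 (adjusted p = 0.000420; -1.09 within slide 1 and -0.99 within slide 2). That at chr16:60424721-60483910 read -3.83, -3.34, -3.91 and -3.22 on the controls and -5.29, -4.23, -4.71 and -4.78 after contusion. It differed by -1.18 ± 0.24 (adjusted p = 0.00553 by limma), with -1.80 within slide 1 and -0.75 within slide 2. Contusion 1 is the only contusion array of slide 1. There this probe lay close to the lowest intensity well above background, which was 5.75 beside a 75th percentile of 246. For chr16:59775543-59818997 the levels were -2.55, -2.71, -3.20 and -2.62 in controls and -4.05, -3.88, -4.12 and -3.72 after contusion, a difference of -1.17 ± 0.16 (adjusted p = 0.000709; -1.21 within slide 1 and -1.36 within slide 2). With normexp background correction, which adds an offset of 50 intensity units, these 3 differences shrank to -0.34, -0.23 and -0.31 and stayed called.

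All 12 circRNAs of Robo1 were lower, with a median of -0.51, and so were 14 of 19 of Robo2, at -0.34. Of the 5 in Nrp2 all were higher, with a median of 0.71, as were 3 of 4 in Ntn1 and 2 of 3 in Plxnb2. The Plxnb2 circRNA at chr15:89161675-89163370 read -1.16, -1.18, -1.01 and -1.29 in controls and -0.04, -0.05, 0.03 and 0.15 after contusion, the largest rise among the 267, 1.18 ± 0.08 without overlap (adjusted p = 9.86e-05; 1.12 within slide 1 and 1.20 within slide 2). In Sema5a, whose mRNA was called lower, none of 25 circRNAs was called by the limma test, with differences from -0.28 to 0.38 and 2 of them at an unadjusted p under 0.05. The reverse held in Epha7 and Plxnc1, whose brightest mRNA probes were not called: 3 of 4 circRNAs of Epha7 were lower and 4 of 9 of Plxnc1 were higher.

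Dcc had the most circRNAs, 38, of which 23 were lower with a median over all 38 of -0.44. The 2 called higher, at 0.81 ± 0.08 and 0.84 ± 0.08, were singled out after their values were seen. They share 1 of their 2 ends, and their probes share 45 of 60 bases in a row. Another 2 with that same end were not called, at -0.14 and -0.24, and of the 5 that share an end with either on the other side, 3 were lower and 2 were not called. Where the strand of host and circRNA was known, 216 of 223 were on the strand of the host. Leaving out the 7 on the opposite strand gave 18 higher and 113 lower.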

How the data were processed

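Single-colour (Cy3) Agilent arrays of total RNA from 4 control and 4 contused mice were analysed. The deposited files hold scanner intensity values, background-subtracted by Feature Extraction, per the file headers, which give 12.0.3.1 for its algorithms, while 10.7 is the Feature Extraction version in the submitters' processing notes, where limma is named too. The authors' log2 table follows the scanner values of each array in rank (Spearman correlation 1), with column medians of 5.399 to 5.400, as quantile normalization would give, and served as an alternative. Of 172336 spots per array, 17057 were not analysed here.

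Processed intensity was divided by each array's 75th percentile over 150305 non-control spots and put on the log2 scale. Spots marked as outliers, 6 to 53 an array, counted as missing. The filter asked for 4 or more arrays well above background, each gene was read from its brightest probe on average, and groups were compared in R 4.3.3 with limma 3.58.1 (lmFit and eBayes), with Benjamini-Hochberg adjustment over 89140 features. The median SE of an mRNA difference was 0.0945, and the number of arrays limits the precision. Gene symbols came from RefSeq (22483 of 22694 NM names matched). The fit was also run on simulated data with independent normal spread, few changed mRNAs and no slide effect. That run cannot vouch for the calls under the slide layout of these arrays.

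The families and the gene lists were chosen with earlier results of these data known. Named with all 8 values are 26 preset genes plus, among non-overlapping calls, the 10 largest rises and 10 largest falls; and the 4 circRNAs with the largest differences. In each further list, up to 3 genes each way are named by their difference. 1 gene of the further lists that the rule names is not reported here. No source used here states that replicate numbers pair the samples. Same-numbered arrays correlated in their deviations from the group mean at -0.24, 0.03, 0.06 and -0.17. The 2 arrays of each such pair lie on different slides, so these values cannot decide whether the numbers pair the mice. Alternatives changed the scaling, background correction, filter, probe rule, slide or replicate block, adjustment and arrays left out. Leaving out contusion 1 and 2 together, and circRNAs on the strand opposite to the host, were added after seeing the data.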

Additional observations from a re-analysis of the deposited data

Results flagged for a closer look

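Among 108 groups of 4 arrays, 1 per named gene and condition, 6 held an array that stood apart from the other 3 by Dixon's criterion, and chance gives about 1 in 20. Control 3 was highest for Efnb2, at a level of 1.91 beside 1.50 to 1.55 on the other controls. Control 1 was lowest for Epha4, at 1.99 beside 2.50 to 2.52, and also for Ephb2, at 2.01 beside 2.25 to 2.29. Control 2 was lowest for Ephb4, at -1.58 beside -1.00 to -0.92. Contusion 3 was lowest for Ntn1, at 0.31 beside 0.56 to 0.60. Control 4 was lowest for Cxcr4, at -1.51 beside -0.95 to -0.86, and that array was also the lowest for the mean of the macrophage markers, at -0.84. The calls for Ephb4 and Ntn1 held whichever array was left out.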

How the results depend on the processing

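Over the 18 alternative settings the share of all mRNAs called ran from 39.1% to 53.6%, beside 51.1%. The number of members called higher ran from 11 to 15 and lower from 22 to 34, beside 12 and 30. Of these, 11 of the 12 higher and 20 of the 30 lower members were called under every setting, and 1 changed sign: Sema3a, at 0.0105 with the mean of its probes. On leaving out 1 array in turn the counts were 12 to 14 higher and 23 to 34 lower. The share of all mRNAs called was then 43.6% to 52.8%. Numbers shared by control and contusion replicates are not stated to pair the mice. With the replicate block 11 members were higher and 23 lower, 33 of these 34 among the 42, beside 41.0% of all mRNAs called. No call was then made for Efna2, Epha4, Ephb3, Ntn3, Plxna3, Plxnb1, Robo1, Sema4a and Sema4f. Slide and described day limit every contrast in the same way, since 3 of 4 contusion arrays share a slide with 1 control. With normexp 76 circRNAs of the members were called lower, beside 113, and 21.7% of all circRNAs, beside 25.7%. Over the other settings run on them the count was 94 to 117, beside 18.7% to 27.2% of all circRNAs.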

Other observations

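For Epha7 and Plxnc1 the probes of the gene differed from each other, and the cause was not tested. The brightest probe of Epha7, an Eph receptor gene with several known isoforms, stood at -0.02 ± 0.11, another with the same RefSeq name at -0.28 ± 0.12, and one named for another RefSeq transcript was lower at -0.91 ± 0.10 (adjusted p = 0.000243 by limma). The median of its 4 circRNAs was -0.68. Plxnc1, the receptor of semaphorin 7A, had 1 of 3 probes called higher at 0.51 ± 0.08 (adjusted p = 0.00112) and 2 not called at 0.09 and 0.11, all under 1 RefSeq name, beside a median of 0.33 over its 9 circRNAs. These probe values come from the fit of single probes.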
